A study of Homo sapiens with 18 samples.

Results

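The ATF4 branch of the integrated stress response was followed through 10 genes in human multiple myeloma cells. These were ATF4 itself, the factors ATF3, ATF5, CEBPB and DDIT3, and the effectors TRIB3, DDIT4, SESN2, CHAC1 and INHBE, taken by symbol from a count table of 28395 genes. All 10 passed the filter on low counts, which kept 14571 genes. RNA was sequenced from the myeloma lines H929, MM1S and OPM2 in 18 libraries, 2 in each of 9 groups. Each line had cells in which CRISPR-Cas9 cuts IKZF1 on induction, set against cells carrying an empty vector. OPM2 also had an inducible knockout of IKZF3, set against the same empty vector cells. All knockout and empty vector cells received doxycycline at 1 µg/mL for 72 h, which switches on the guide RNA. OPM2 cells kept in 10 µM lenalidomide for 72 h were set against untreated OPM2 cells, and no vector is given in the labels of either. IKZF1 (Ikaros) and IKZF3 (Aiolos) are zinc finger transcription factors of the lymphoid lineage, and lenalidomide directs both proteins to degradation through the ubiquitin ligase component cereblon. The sources used here do not say whether libraries a and b of a knockout are separate clones, guides or cultures, so the tests measure the spread between libraries, which may be technical. In OPM2 the column names of the IKZF1 knockout libraries also differ in a code letter (B and C), which is not explained.

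Cells that run short of amino acids, sense viral RNA or accumulate unfolded protein phosphorylate the translation factor eIF2 alpha. Bulk protein synthesis then drops, while ATF4 mRNA is translated more efficiently, so the ATF4 transcript is only one of the points at which the pathway is controlled. ATF4 pairs with C/EBP partners at composite C/EBP-ATF elements and switches on amino acid synthesis, transport, tRNA charging and, under lasting stress, genes linked to cell death. Plasma cells, from which myeloma arises, secrete antibody in bulk and depend on XBP1, a factor of another arm of the unfolded protein response.

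Total counts were 11.8 to 24.19 M per library. OPM2 empty vector replicate 1 stood apart: 1035 genes differed more than 2-fold between the 2 OPM2 empty vector libraries, against 31 to 254 between the libraries of any other group. It had the highest level of ATF4, ATF5, CEBPB, DDIT3 and TRIB3 among OPM2 libraries, so the members' calls against this group were also made with replicate 2 alone. Plasma cell genes were abundant in every library, with 9 markers summing to between 7554 and 23230 CPM (counts after scaling by TMM library size). Summed T cell, myeloid, stromal and erythroid markers stayed at or below 5.133 CPM outside 2 cases, T cell markers in H929 (28.71 to 30.77 CPM with the IKZF1 knockout, 40.69 to 42.07 CPM with empty vector, nearly all CD3E) and erythroid markers in OPM2 (up to 18.59 CPM). The targeted transcripts were not lower in the knockouts, so RNA levels give no check of gene loss: IKZF1 differed by 0.33, 0.83 and 0.63 on the log2 scale in H929, MM1S and OPM2 IKZF1 knockouts, and IKZF3 by 0.52 in the OPM2 IKZF3 knockout.

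The promoters of the members were read for the core of the composite element, TGATGNAA, on both strands, in windows of 300 bases that run from 250 bases before to 50 bases after a start site (RefSeq, GRCh38.p14). Of the 10 members, 9 had a window, INHBE being the exception. The motif was found in 2 of the 9, CHAC1 and ATF3, and in 1217 of 27305 genes with a window (4.46%). CHAC1 and ATF3 are shown because they hold the motif (in capitals), and SESN2 and TRIB3 because they move with CHAC1 below and their windows hold none. The CHAC1 window is chr15:40953221-40953520, the ATF3 window chr1:212565157-212565456, the SESN2 window chr1:28259268-28259567 and the TRIB3 window, the first of several, chr20:381045-381344, all on the plus strand.
CHAC1: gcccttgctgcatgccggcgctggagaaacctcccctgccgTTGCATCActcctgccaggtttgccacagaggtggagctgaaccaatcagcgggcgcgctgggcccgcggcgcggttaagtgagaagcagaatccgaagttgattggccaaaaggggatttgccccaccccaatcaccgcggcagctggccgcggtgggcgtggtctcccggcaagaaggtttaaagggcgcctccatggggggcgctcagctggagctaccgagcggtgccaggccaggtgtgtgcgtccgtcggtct
ATF3: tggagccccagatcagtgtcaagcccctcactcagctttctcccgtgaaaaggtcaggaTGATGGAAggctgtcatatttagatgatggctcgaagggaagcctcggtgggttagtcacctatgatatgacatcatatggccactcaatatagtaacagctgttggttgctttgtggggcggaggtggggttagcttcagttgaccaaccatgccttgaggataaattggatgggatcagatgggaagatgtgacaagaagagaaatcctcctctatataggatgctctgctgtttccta
SESN2: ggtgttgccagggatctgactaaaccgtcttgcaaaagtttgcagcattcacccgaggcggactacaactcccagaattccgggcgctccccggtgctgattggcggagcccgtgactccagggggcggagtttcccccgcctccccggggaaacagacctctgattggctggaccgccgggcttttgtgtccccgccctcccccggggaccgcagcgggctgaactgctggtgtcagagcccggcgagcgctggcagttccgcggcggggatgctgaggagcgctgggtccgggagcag
TRIB3: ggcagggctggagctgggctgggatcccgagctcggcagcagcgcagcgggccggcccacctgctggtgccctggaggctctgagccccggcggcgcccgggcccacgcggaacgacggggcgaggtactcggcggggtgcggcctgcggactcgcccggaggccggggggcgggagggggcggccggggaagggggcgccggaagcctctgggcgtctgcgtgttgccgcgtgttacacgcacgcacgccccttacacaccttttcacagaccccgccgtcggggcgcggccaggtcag
In CHAC1 the match reads TTGCATCA, the motif on the opposite strand, and begins 209 bases before the start site. In ATF3 it reads TGATGGAA and begins 191 bases before the first listed start site. The second ATF3 window, chr1:212614768-212615067, held no match. Counted by window, 2 of the 17 windows of the members held the motif (11.8%). These are matches of letters, and binding was not measured.

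Levels of the same gene were compared across groups in CPM. ATF4 was highest in OPM2 empty vector cells (1309 and 812.5 CPM) and untreated OPM2 cells (908.1 and 887.1 CPM), whose libraries overlapped. It was lowest in MM1S cells without IKZF1 (204.1 and 200.3 CPM). Between these ends, OPM2 IKZF3 knockout (442.2 and 449 CPM) overlapped H929 empty vector cells (421.4 and 447.3 CPM), and OPM2 cells on lenalidomide (402.2 and 364.6 CPM) overlapped H929 IKZF1 knockout cells (342.6 and 382.4 CPM). TRIB3, DDIT3, CEBPB, SESN2, CHAC1 and INHBE were likewise highest in untreated or empty vector OPM2 cells. ATF5 and DDIT4 departed from this order: ATF5 had 784 to 985.2 CPM in the 4 H929 libraries against 27.98 to 65.24 CPM in the other 14, and DDIT4 was also highest in H929.

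**Figure D1:**
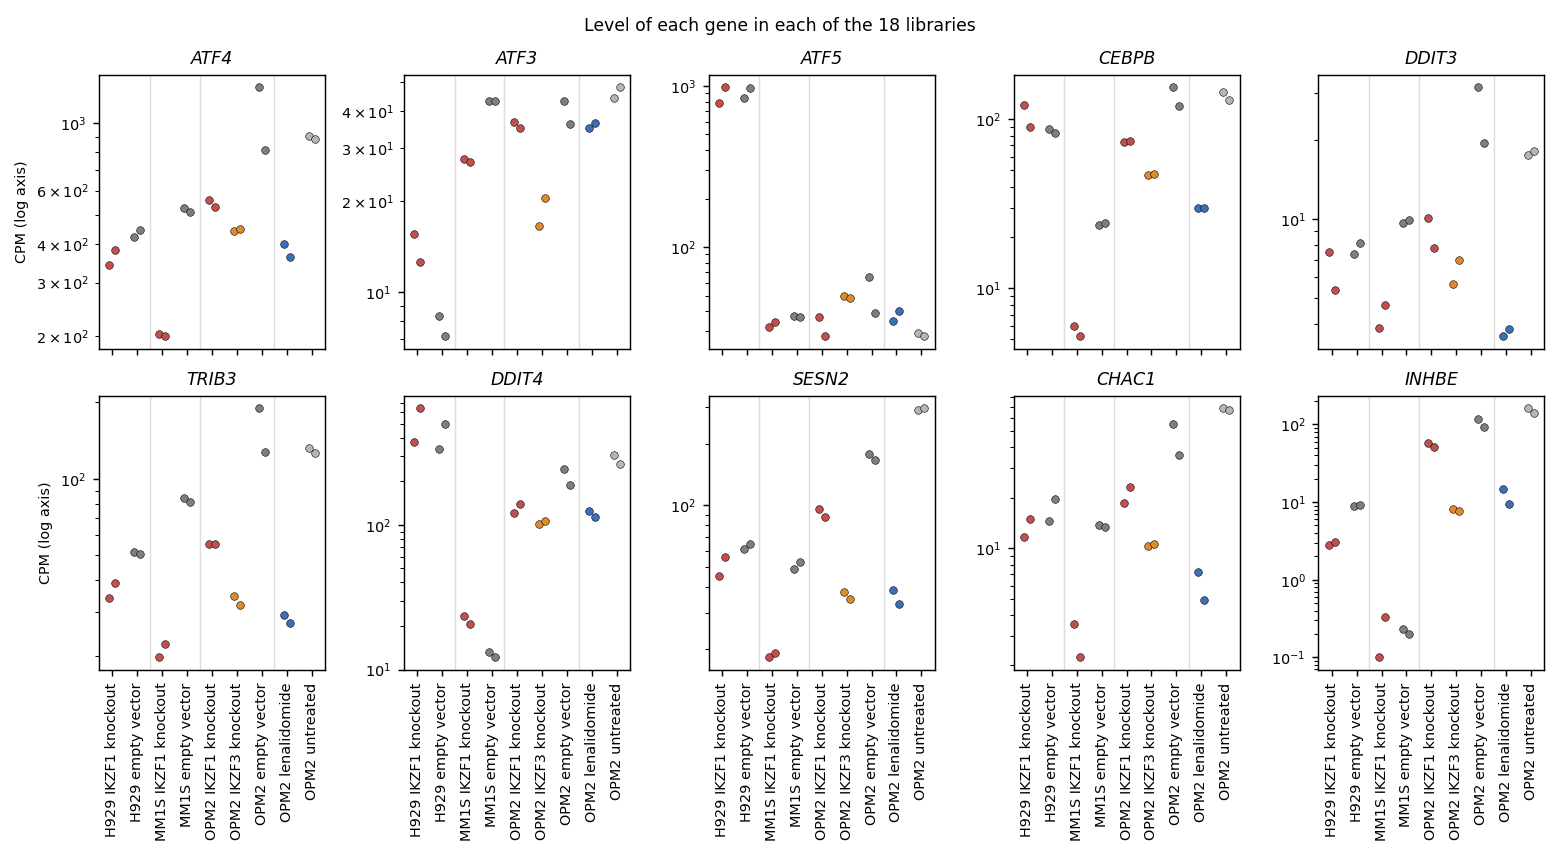
Level of each gene in CPM (log axis, its range set per gene) in each of the 18 libraries, 2 points a group, with grey lines between the sets of groups that are compared. The MM1S IKZF1 knockout library with 0 INHBE counts is drawn at 0.1 CPM. The 4 H929 libraries sit apart from all others for ATF5, and the 2 OPM2 empty vector libraries sit apart from each other for ATF4 and DDIT3.

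The lines differed in their unperturbed levels as well. Among empty vector cells, 7 of the 10 members were called between H929 and MM1S, 10 between H929 and OPM2 and 9 between MM1S and OPM2, where 63.2%, 64.6% and 67.5% of all genes were called, so line differences in these genes were common but so were those of other genes. INHBE, the beta E subunit of an activin made mainly by liver and induced by stress, varied most: it had 0.235 and 0.1979 CPM in MM1S empty vector cells, against 118.7 and 93.84 CPM in OPM2 empty vector cells. DDIT4 had 336.6 and 502.2 CPM in H929 empty vector cells, against 13.22 and 12.14 CPM in MM1S empty vector cells (33.0-fold, edgeR adjusted p = 7.81e-10). ATF3, by contrast, had 8.324 and 7.144 CPM in H929 empty vector cells, against 43.07 and 43.14 CPM in MM1S empty vector cells. In the authors' deposited table, which is scaled by gene length, ATF4 was the most abundant member in 7 of the 9 groups at 6.62 to 8.8 log2 FPKM. In the authors' deposited table the exception was H929, where ATF5 (8.07 and 8.08 log2 FPKM in knockout and empty vector cells) and DDIT4 (8.08 and 7.89 log2 FPKM) lay above ATF4 (7.46 and 7.71 log2 FPKM).

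**Figure D2:**
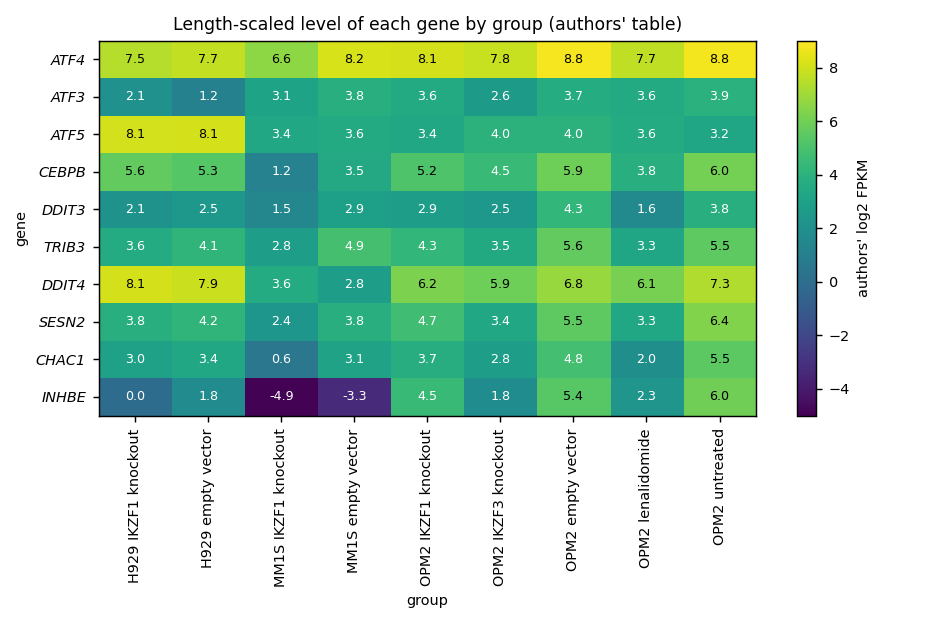
Mean log2 FPKM per gene and group from the authors' deposited table, which allows levels to be compared between genes (colour and printed value). ATF4 leads in MM1S and OPM2, ATF5 and DDIT4 lead in H929, and INHBE is below 0 in MM1S.

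The loss of IKZF1 or IKZF3 and lenalidomide lowered most members in OPM2, the loss of IKZF1 lowered most in MM1S, and few changed in H929. A member was called at an adjusted p below 0.05 (edgeR quasi-likelihood test, Benjamini-Hochberg over 14571 genes). In OPM2, 9 of 10 were called lower without IKZF1 and none higher, where 20% of all genes were called lower and 16.2% higher, and the members' median log2 fold change was -0.93. Without IKZF3, 9 of 10 were called lower and none higher, where 20.6% of all genes were called lower and 16.2% higher, with a member median of -1.77. With lenalidomide, 8 of 10 were called lower and none higher, where only 4.58% of all genes were called lower and 5.76% higher, with a member median of -2.2. In MM1S without IKZF1, 7 were called lower and 1 higher, against 12.6% and 15.6% of all genes, with a member median of -1.28. In H929 without IKZF1, 1 was called lower and 1 higher, against 4.6% and 5.92% of all genes, with a member median of -0.26. The median over all genes lay between -0.032 and 0.003 in these 5 comparisons. In bulk RNA, less transcript per cell and fewer cells with the transcript cannot be told apart. Without OPM2 empty vector replicate 1, the counts were 7 lower without IKZF1 and 8 lower without IKZF3 in OPM2, 9 lower with lenalidomide, 7 lower in MM1S, and 4 lower and 2 higher in H929. The shares of all genes called lower and higher were then 10% and 11.2% without IKZF1 and 11.3% and 12.1% without IKZF3 in OPM2, and 10.6% and 11.3% with lenalidomide. In MM1S they were 19.5% and 22.8%, and in H929 11.3% and 10.9%. When only the 4 libraries of a comparison were fitted, 0 members were called in OPM2 without IKZF1 and 3 without IKZF3 (TRIB3, SESN2 and INHBE), against 10 with lenalidomide, 8 of 9 tested in MM1S and 3 in H929. Those fits called 114, 52, 5576, 7032 and 1715 genes in all. The H929 count was also 6 without OPM2 empty vector replicate 2, and 4 without H929 knockout library b.

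Empty vector OPM2 cells differ from untreated ones by both the vector and doxycycline, which cannot be told apart. Here 1 member was called lower and 1 higher, where 15.8% of all genes were called lower and 19.5% higher. SESN2 fell by 0.77 on the log2 scale, with 177.4 and 167 CPM in empty vector cells against 291.2 and 297.5 CPM in untreated cells. ATF5 rose, with 65.24 and 39.21 CPM in empty vector cells against 29.14 and 27.98 CPM in untreated cells, but not without empty vector replicate 1 (adjusted p = 0.0809). Without that library 4 members were called lower, SESN2, CHAC1, INHBE and ATF3, and none higher. Without replicate 2 in its place, SESN2 was called lower and ATF4, ATF5, DDIT3 and TRIB3 higher, and ATF4 differed by 0.54, against -0.18 without replicate 1.

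**Figure D3:**
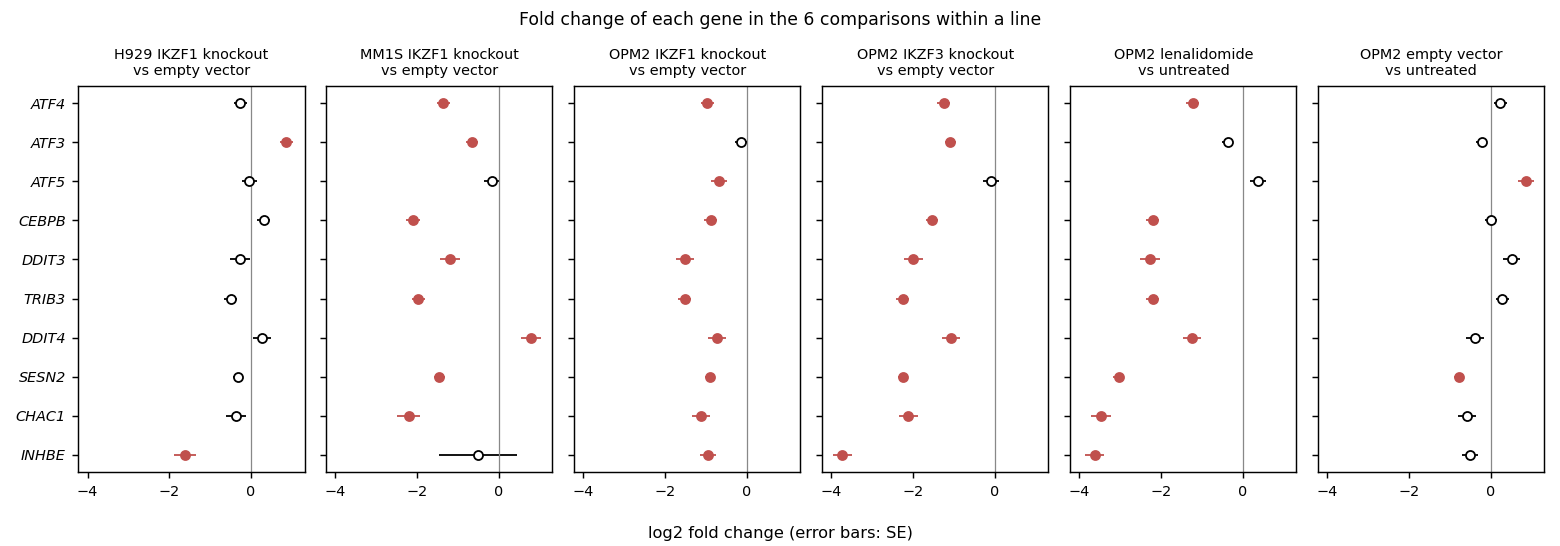
Log2 fold change of each gene, with its standard error, in the 6 comparisons within a line (filled red: adjusted p below 0.05; open: not called). In OPM2 with lenalidomide and without IKZF3, CHAC1, SESN2 and INHBE lie beyond -2, while in H929 all but ATF3 and INHBE are open points.

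ATF4, the hub of the pathway, fell in 4 of the 5 perturbations. In MM1S it had 204.1 and 200.3 CPM without IKZF1 against 526.3 and 509.9 CPM with empty vector, a log2 fold change of -1.36 ± 0.16 (SE; adjusted p = 2.78e-05). In OPM2 it had 402.2 and 364.6 CPM with lenalidomide against 908.1 and 887.1 CPM untreated, a log2 fold change of -1.23 ± 0.16 (adjusted p = 0.000193). Both pairs of groups were far apart relative to the spread between libraries. Loss of IKZF1 in OPM2 gave 558.1 and 529.3 CPM and loss of IKZF3 442.2 and 449 CPM, against 1309 and 812.5 CPM in the shared empty vector cells. The log2 fold changes were -0.96 ± 0.16 and -1.25 ± 0.16, and without empty vector replicate 1 they were -0.55 (adjusted p = 0.000357) and -0.83 (adjusted p = 8.6e-06). In H929, ATF4 had 342.6 and 382.4 CPM without IKZF1 against 421.4 and 447.3 CPM with empty vector, which did not overlap but did not pass (log2 fold change -0.26 ± 0.16, adjusted p = 0.376). That value passed without OPM2 empty vector replicate 1 (adjusted p = 0.0155).

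Of the other factors, CEBPB and DDIT3 fell in the 4 perturbations in which ATF4 fell, ATF3 in 2 of them and ATF5 in 1. CEBPB, a C/EBP factor that can pair with ATF4, had 5.976 and 5.216 CPM without IKZF1 in MM1S against 23.85 and 24.47 CPM with empty vector. With lenalidomide it had 29.97 and 29.68 CPM in OPM2 against 144.5 and 129.8 CPM untreated. The log2 fold changes were -2.10 ± 0.18 and -2.20 ± 0.16 (adjusted p = 1.17e-06 and 6.82e-07). In OPM2 the knockouts of IKZF1 and IKZF3 gave 73.63 and 74.73 CPM and 46.71 and 47.62 CPM, against 155.2 and 119.4 CPM with empty vector. CEBPB was thus below its control in all 4, with no overlap, while in H929 it had 122.2 and 89.55 CPM without IKZF1 against 87.6 and 82.74 CPM with empty vector, which did not pass (adjusted p = 0.228) but did without OPM2 empty vector replicate 1 (adjusted p = 0.044). Without that library the OPM2 log2 fold changes were -0.65 without IKZF1 and -1.31 without IKZF3 (adjusted p = 0.00163 and 4.3e-06).

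DDIT3 encodes CHOP, a factor linked to death under lasting stress. With lenalidomide it had 3.591 and 3.811 CPM against 17.47 and 18.11 CPM untreated (log2 fold change -2.26 ± 0.25, adjusted p = 3.4e-05). Without IKZF1 in MM1S it had 3.871 and 4.719 CPM against 9.695 and 9.893 CPM with empty vector. In OPM2 it had 10.09 and 7.767 CPM without IKZF1 and 5.666 and 7.006 CPM without IKZF3, against 31.67 and 19.44 CPM with empty vector. Without empty vector replicate 1 the OPM2 log2 fold changes were -1.09 without IKZF1 and -1.57 without IKZF3 (adjusted p = 0.000897 and 4.18e-05). All 4 differences were called, and DDIT3 in H929 was not, with 7.49 and 5.399 CPM against 7.361 and 8.107 CPM and overlapping groups. Exons of DDIT3 overlap those of MARS and MBD6 on the other strand, and the library kit is not stated to keep the strand, so some of these reads may not be its own. MARS, the methionyl-tRNA synthetase gene, fell by 0.89 in MM1S and by 0.74 with lenalidomide on the log2 scale, where DDIT3 had -1.19 and -2.26. ATF5 (with NUP62 and IL4I1), DDIT4 and CEBPB (each with its antisense gene) share exonic sequence across strands in the same way.

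ATF3, a stress-induced factor with both activating and repressing roles, was the member that rose in H929. It had 15.6 and 12.57 CPM without IKZF1 against 8.324 and 7.144 CPM with empty vector (log2 fold change 0.87 ± 0.16, adjusted p = 0.00215). In MM1S it fell, with 27.71 and 26.99 CPM against 43.07 and 43.14 CPM. In OPM2 it fell without IKZF3, with 16.62 and 20.57 CPM against 43.2 and 36.06 CPM with empty vector, and the call held without empty vector replicate 1 (log2 fold change -0.91). It was not called without IKZF1 in OPM2, with 36.59 and 35.13 CPM in groups that overlapped, nor with lenalidomide, with 34.93 and 36.41 CPM against 44.17 and 47.95 CPM untreated (adjusted p = 0.126).

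ATF5, an ATF4 relative with a part in the mitochondrial stress response, was called in 1 of the 5 perturbations, OPM2 without IKZF1, with 37.04 and 28.13 CPM against 65.24 and 39.21 CPM with empty vector. The call ended without empty vector replicate 1 (log2 fold change -0.24, adjusted p = 0.339). With lenalidomide ATF5 had 34.54 and 39.9 CPM against 29.14 and 27.98 CPM untreated, a log2 fold change of 0.38 ± 0.20 that did not pass (adjusted p = 0.299). Without IKZF3 it had 49.54 and 48.11 CPM, inside the range of the empty vector libraries.

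Of the effectors, TRIB3, SESN2 and CHAC1 fell in the same 4 perturbations as ATF4. TRIB3, a pseudokinase that restrains AKT and ATF4 itself, had 19.83 and 22.35 CPM without IKZF1 in MM1S against 83.96 and 81.26 CPM with empty vector (log2 fold change -1.97 ± 0.16, adjusted p = 9.37e-07). With lenalidomide it had 29.19 and 27.08 CPM against 132.9 and 126.3 CPM untreated (-2.20 ± 0.16, adjusted p = 8.34e-07). In OPM2 it had 55.21 and 55.19 CPM without IKZF1 and 34.69 and 31.77 CPM without IKZF3, against 189.9 and 127.3 CPM with empty vector. These groups did not overlap, and without empty vector replicate 1 both calls held (log2 fold changes -1.17 and -1.91). With only the compared libraries fitted, the call without IKZF1 was lost (adjusted p = 0.0685) and that without IKZF3 held (adjusted p = 0.0454). In H929, TRIB3 had 34.02 and 39.03 CPM against 51.76 and 50.77 CPM, just short of the threshold (log2 fold change -0.49 ± 0.16, adjusted p = 0.0638), and passed without OPM2 empty vector replicate 1 (adjusted p = 0.000718).

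CHAC1 encodes an enzyme that breaks down glutathione. It fell to 7.182 and 4.947 CPM with lenalidomide, against 68.58 and 67.05 CPM untreated, so that 9.03% of the untreated level remained (log2 fold change -3.47 ± 0.26, adjusted p = 8.34e-07). In MM1S it had 3.531 and 2.235 CPM without IKZF1 against 13.69 and 13.32 CPM with empty vector (-2.21 ± 0.28, adjusted p = 4.98e-05). In OPM2 it had 18.62 and 23.07 CPM without IKZF1 and 10.32 and 10.63 CPM without IKZF3, against 55.18 and 35.97 CPM with empty vector. None of these groups overlapped, and without empty vector replicate 1 the OPM2 log2 fold changes were -0.75 without IKZF1 and -1.74 without IKZF3 (adjusted p = 0.0119 and 2.77e-05). In H929 the groups overlapped, with 11.63 and 15.04 CPM against 14.55 and 19.76 CPM, and CHAC1 was not called.

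SESN2, a leucine sensor that restrains the growth kinase complex mTORC1, had the smallest adjusted p of the 10 members with lenalidomide. It had 38.46 and 33 CPM with lenalidomide against 291.2 and 297.5 CPM untreated (-3.04 ± 0.13, adjusted p = 1.05e-08). Without IKZF3 it had 37.84 and 34.99 CPM and without IKZF1 95.9 and 87.73 CPM, against 177.4 and 167 CPM with empty vector. Lenalidomide and the IKZF3 knockout thus left SESN2 at overlapping levels, from controls that themselves differed. In MM1S it had 18.13 and 19.12 CPM without IKZF1 against 49.18 and 53.16 CPM with empty vector (-1.46 ± 0.13, adjusted p = 1.81e-06). In H929 it had 45.1 and 55.84 CPM without IKZF1 against 61.5 and 64.6 CPM with empty vector, which did not overlap and did not pass (adjusted p = 0.127) but did without OPM2 empty vector replicate 1 (adjusted p = 0.029). Without that library the OPM2 log2 fold changes were -0.83 without IKZF1 and -2.17 without IKZF3.

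DDIT4, which encodes the mTORC1 inhibitor REDD1, was called higher in MM1S. It had 23.43 and 20.7 CPM without IKZF1 there against 13.22 and 12.14 CPM with empty vector (log2 fold change 0.80 ± 0.25, adjusted p = 0.0258). That call did not hold under 7 of 13 alternatives, in which the adjusted p reached 0.141. In OPM2 DDIT4 fell with lenalidomide, with 125.4 and 113.1 CPM against 302.2 and 264.3 CPM untreated. It had 121.4 and 138.6 CPM without IKZF1 and 101 and 105.7 CPM without IKZF3, against 243.1 and 189 CPM with empty vector. Both knockout calls ended without empty vector replicate 1 (adjusted p = 0.275 and 0.0703). The H929 groups overlapped, with 374.2 and 641.2 CPM without IKZF1 against 336.6 and 502.2 CPM with empty vector.

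INHBE gave the lowest log2 fold change of the 10 members over the 5 perturbations. It had 8.184 and 7.74 CPM without IKZF3 in OPM2 and 58.53 and 51.72 CPM without IKZF1, against 118.7 and 93.84 CPM with empty vector. Loss of IKZF3 thus left 7.49% of the empty vector level and loss of IKZF1 51.9% (log2 fold changes -3.74 ± 0.23 and -0.95 ± 0.20, or -3.53 and -0.74 without empty vector replicate 1). With lenalidomide INHBE had 14.82 and 9.569 CPM against 162.2 and 140.3 CPM untreated (-3.62 ± 0.23, adjusted p = 3.26e-07). It also fell in H929, with 2.809 and 3.085 CPM without IKZF1 against 8.834 and 9.171 CPM with empty vector (-1.61 ± 0.27, adjusted p = 0.00126). In MM1S it was near the limit of detection, with 0 and 4 counts without IKZF1 against 4 and 3 counts with empty vector, and a difference was not detectable at this depth.

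The knockouts of IKZF1 and IKZF3 in OPM2 share their empty vector libraries, so they were set against each other directly. Here 6 of 10 members were called higher without IKZF1 than without IKZF3 and none lower, where 2.59% of all genes were called in either direction. INHBE was 6.93-fold higher (log2 fold change 2.79 ± 0.23, adjusted p = 2.89e-05) and SESN2 2.52-fold higher (1.33 ± 0.13, adjusted p = 6.06e-05). CHAC1, ATF3, TRIB3 and CEBPB were higher by 0.99, 0.94, 0.73 and 0.65 on the log2 scale. ATF4 itself differed by 0.29 ± 0.16 and was not called (edgeR adjusted p = 0.493). Leaving out a knockout library lowered the count to 2 or 3, and leaving out OPM2 empty vector replicate 1 raised it to 8, of which 7 were higher.

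The effect of IKZF1 loss was also compared between lines. It was higher (less negative or more positive) in H929 than in MM1S for 6 of 10 members, where 15.9% of all genes were called in either direction. CEBPB differed by 2.42 ± 0.23 (adjusted p = 9.01e-06), ATF3 by 1.52 ± 0.21 and ATF4 by 1.10 ± 0.23 on the log2 scale. It was higher in H929 than in OPM2 for 6 members, where 12.7% of all genes were called, with DDIT3 at 1.25 ± 0.33 and CEBPB at 1.2 ± 0.21. That count was 4 without OPM2 empty vector replicate 1 and 3 without any of 3 other libraries (either H929 empty vector library or OPM2 IKZF1 knockout library b). Between MM1S and OPM2, 4 were called, where 20.7% of all genes were called: DDIT4 was higher in MM1S by 1.53 ± 0.33, and CEBPB, CHAC1 and SESN2 were lower by -1.22 ± 0.23, -1.08 ± 0.36 and -0.55 ± 0.18. ATF4 did not differ between these 2 lines at the threshold (-0.39 ± 0.23, adjusted p = 0.231). Without OPM2 empty vector replicate 1 the count was 6, all lower, and it was 2 without either MM1S empty vector library, MM1S knockout library b or either OPM2 knockout library.

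The lenalidomide effect in OPM2 was set against the effect of IKZF1 loss in a comparison added after the data were seen. The controls differ, lenalidomide being set against untreated cells and the knockout against empty vector cells, in which SESN2 was itself lower than in untreated cells (-0.77) and CHAC1 and INHBE were at -0.58 and -0.51, not called. The lenalidomide effect was lower for 4 of 10 members, where 0.281% of all genes were called in either direction. INHBE differed by -2.68 ± 0.30, CHAC1 by -2.35 ± 0.34, SESN2 by -2.13 ± 0.18 and CEBPB by -1.31 ± 0.21 on the log2 scale (adjusted p = 0.000882, 0.00595, 5.03e-05 and 0.0165). With untreated cells as the control of both, the log2 fold changes with lenalidomide were -3.62 for INHBE, -3.47 for CHAC1, -3.04 for SESN2 and -2.20 for CEBPB, and those without IKZF1 were -1.46, -1.70, -1.68 and -0.89. ATF4 differed by -0.26 ± 0.23 and was not called (adjusted p = 0.463). The count was 7 without OPM2 empty vector replicate 1 and 2 without lenalidomide replicate 2.

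Other genes of the pathway were taken from lists that were chosen with earlier results of these data known. Of 31 further ATF4 targets (amino acid synthesis, amino acid transport, tRNA charging and partner factors), 29 were tested. Some of these were near the limit of detection in OPM2, where a fall could hardly be detected. With lenalidomide and in untreated cells, CBS had 0 and 0 CPM, PHGDH 0 and 0.1405 CPM, and PSAT1 0.09794 and 0.3168 CPM. Without IKZF1, 24 fell in MM1S, 18 in OPM2 and 4 in H929. Without IKZF3, 21 fell in OPM2, and 24 fell with lenalidomide. None was called higher in any of these 5 comparisons. Of all genes, 12.6% were called lower in MM1S, 20% in OPM2 and 4.6% in H929 without IKZF1. The shares lower were 20.6% without IKZF3 and 4.58% with lenalidomide. Shares without OPM2 empty vector replicate 1 are given beside the member counts. The list's median log2 fold change was -0.93 in MM1S, -0.46 in OPM2 without IKZF1, -0.21 in H929, -0.98 without IKZF3 and -1.31 with lenalidomide. Without OPM2 empty vector replicate 1 the counts lower were 25, 19, 8, 21 and 24, with 3 higher in H929.

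Values are given for genes with small p. In MM1S PSAT1, phosphoserine aminotransferase, had a mean of 34.05 CPM without IKZF1 and 244.5 CPM with empty vector (log2 fold change -2.84 ± 0.21). There PHGDH, the first enzyme of serine synthesis, had a log2 fold change of -2.48, and ASNS, asparagine synthetase, one of -1.86. With lenalidomide ASNS averaged 55.26 CPM against 308.7 CPM untreated (-2.48 ± 0.17, adjusted p = 4.51e-07), CTH, which makes cysteine, fell by 2.47 and SLC7A5, the large neutral amino acid transporter, by 2.01. Without IKZF3 ASNS fell by 1.79, PSPH (phosphoserine phosphatase) by 1.61 and SLC7A5 by 1.36. Without IKZF1 in OPM2 SLC7A5 fell by 1.18, its partner chain SLC3A2 by 1.14 and ASNS by 1.07. In H929 the genes called were SLC7A11, the cystine transporter, at -1.45 ± 0.41, CTH at -0.52, ALDH18A1 at -0.38 and GARS at -0.37. In empty vector against untreated OPM2 cells, 6 of the list were called lower and 1 higher, with CTH at -1. Of all genes, 15.8% were called lower and 19.5% higher there.

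Genes that act upstream of ATF4 were called in both directions, in MM1S and with lenalidomide at counts near the share of all genes. Of 17 genes for the eIF2 alpha kinases and their control, 2 rose and 1 fell in H929, 3 rose and 3 fell in MM1S, 4 rose and 8 fell in OPM2 without IKZF1, 3 rose and 7 fell without IKZF3, and 1 rose and 1 fell with lenalidomide. Of all genes, 5.92% rose and 4.6% fell in H929, 15.6% and 12.6% in MM1S, 16.2% and 20% in OPM2 without IKZF1, 16.2% and 20.6% without IKZF3, and 5.76% and 4.58% with lenalidomide. Without OPM2 empty vector replicate 1, these counts were 2 and 6, 5 and 5, 2 and 4, 3 and 4, and 1 and 3. EIF2AK2, the kinase PKR that senses double-stranded RNA, averaged 126.9 CPM without IKZF1 in H929 against 25.49 CPM with empty vector (log2 fold change 2.32 ± 0.22, adjusted p = 7.07e-06). It also rose in OPM2, by 1.24 without IKZF1, 1.46 without IKZF3 and 0.78 with lenalidomide. Empty vector OPM2 cells, at 9.806 CPM, were themselves below untreated cells at 19.53 CPM (-0.97, adjusted p = 0.00643), and the knockouts without IKZF1 and IKZF3 averaged 23.66 and 27.53 CPM. EIF2AK3, the kinase PERK, rose by 0.76 in H929, 0.78 in MM1S, 0.68 in OPM2 without IKZF1 and 0.97 without IKZF3. In OPM2 it averaged 199.8 CPM without IKZF1 and 244 CPM without IKZF3, against 124.3 CPM with empty vector, which was below the 229.5 CPM of untreated cells (-0.88, adjusted p = 0.00652). Without empty vector replicate 1 the call without IKZF1 ended (0.39, adjusted p = 0.21) and that without IKZF3 held (0.68). PPP1R15A, the phosphatase subunit GADD34 that reverses eIF2 alpha phosphorylation, fell by 0.69 in MM1S, 1.17 in OPM2 without IKZF1 and 1.05 without IKZF3. OMA1, a mitochondrial protease that relays stress to this pathway, fell in H929 (-0.87), MM1S (-1.08), OPM2 without IKZF1 (-0.89) and with lenalidomide (-1.35), and was not called without IKZF3 (-0.41, adjusted p = 0.102).

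The XBP1 and ATF6 arms of the unfolded protein response did not show the same counts. In MM1S without IKZF1, where ATF4 targets fell, 12 of 20 genes of these arms rose and none fell, with a list median of 0.37. XBP1 averaged 1230 CPM without IKZF1 and 707.7 CPM with empty vector there (0.80 ± 0.09, adjusted p = 2.4e-05), and ATF6 rose by 0.81. With lenalidomide 2 of 20 fell, HERPUD1 (-0.79) and EDEM1 (-0.86), and none rose. In OPM2, 5 rose and 5 fell without IKZF1, and 1 rose and 6 fell without IKZF3. Without OPM2 empty vector replicate 1 these were 4 and 0 and then 1 and 5. In H929, 1 rose (HERPUD1, 0.79) and 4 fell, led by PDIA6 (-0.86), a count of 3 and 12 without OPM2 empty vector replicate 1. The same setting gave 15 and 1 in MM1S and 1 and 5 with lenalidomide. Of all genes, 15.6% rose and 12.6% fell in MM1S, and 5.76% rose and 4.58% fell with lenalidomide. In OPM2 the shares were 16.2% and 20% without IKZF1 and 16.2% and 20.6% without IKZF3, and in H929 5.92% and 4.6%. Shares without OPM2 empty vector replicate 1 are given beside the member counts. The difference between the 2 lists was not tested.

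**Figure D4:**
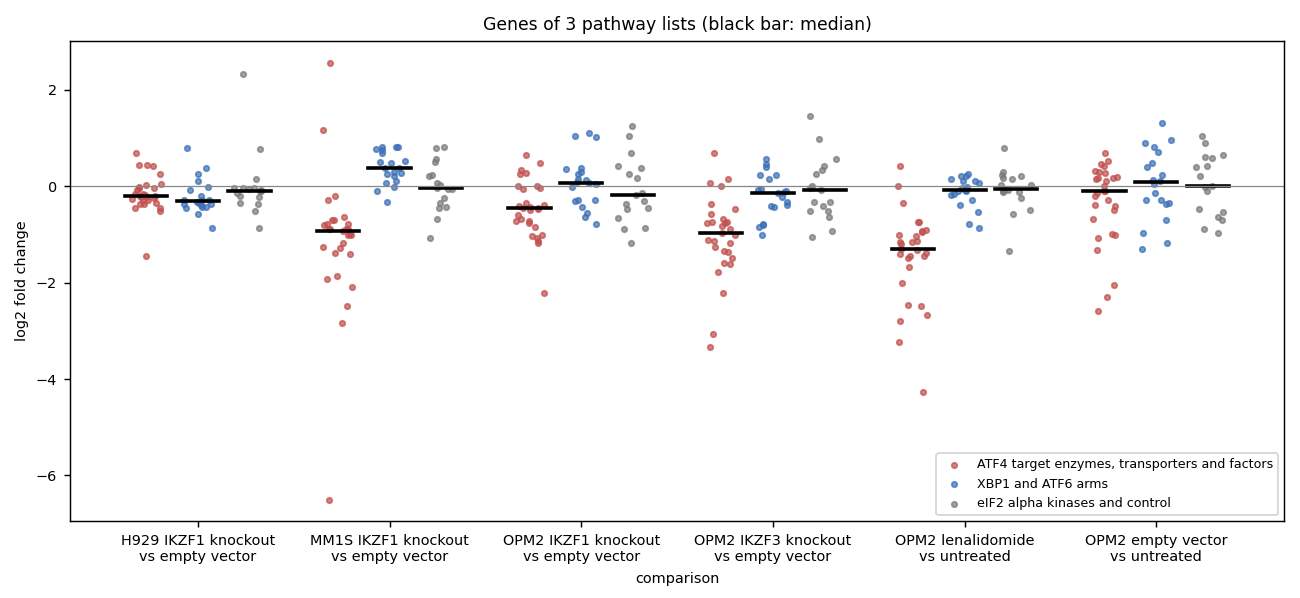
Log2 fold change of the genes tested in 3 lists (29 further ATF4 targets, 20 genes of the XBP1 and ATF6 arms, 17 genes for the eIF2 alpha kinases and their control) in the 6 comparisons, 1 point a gene, with the list median as a black bar. In MM1S the median of the ATF4 targets is -0.93 and that of the XBP1 and ATF6 arms is 0.37. In OPM2 the ATF4 targets CBS, PHGDH and PSAT1 were near the limit of detection.

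Among 6 genes for DDIT3 targets and death effectors, BCL2L11, which encodes the death activator BIM, rose in OPM2 while DDIT3 fell, by 1.11 without IKZF1, 1.19 without IKZF3 and 0.61 with lenalidomide. Its knockout levels of 96.44 CPM without IKZF1 and 101.6 CPM without IKZF3, against 44.48 CPM with empty vector, were close to the 103 CPM of untreated cells, from which empty vector cells differed by -1.21 (adjusted p = 0.000427). BBC3, which encodes PUMA, fell in the same 3 comparisons, by 0.82, 0.95 and 1.35, but without OPM2 empty vector replicate 1 it passed with lenalidomide alone (adjusted p = 0.135 without IKZF1 and 0.0583 without IKZF3). The list had 2 genes higher and none lower in H929, 1 lower in MM1S, 1 higher and 1 lower in OPM2 without IKZF1, 2 and 2 without IKZF3, and 1 and 3 with lenalidomide. Leaving out OPM2 empty vector replicate 1 turned these into 3 higher and 0 lower, 1 and 2, 1 and 0, 1 and 1, and 1 and 5. In MM1S the called gene of this list was PMAIP1 (NOXA), at -1.76 ± 0.32. In H929 they were BCL2, a survival gene, at 1.2 and the death receptor gene TNFRSF10B at 0.57. The counts of this list thus pool a survival gene with death effectors and give no direction for cell death. Of 18 tested relatives of the members, 2 rose and 1 fell in H929, 3 and 3 in MM1S, 4 and 1 in OPM2 without IKZF1, 2 and 7 without IKZF3, and 1 and 4 with lenalidomide. Leaving out OPM2 empty vector replicate 1 gave 2 and 1, 6 and 3, 4 and 2, 0 and 6, and 1 and 5. For both lists the shares of all genes are those given beside the member counts. CEBPG, the C/EBP partner through which ATF4 acts on many targets and which the ATF4 target list also holds, fell by 0.71 in MM1S, 0.43 in OPM2 without IKZF1, 0.57 without IKZF3 and 1.16 with lenalidomide. BATF2 rose without IKZF1 in H929, with a mean of 4.395 CPM against 0.1103 CPM with empty vector. It also rose in OPM2 without IKZF1, with a mean of 1.716 CPM against 0.02282 CPM with empty vector. With lenalidomide it averaged 1.114 CPM against 0.02298 CPM untreated. These controls were near the limit of detection. SESN1, a relative of SESN2, rose by 0.84 in MM1S where SESN2 fell.

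Across the 9 group means, the levels of some members ran together. Pearson's r of log2 CPM was 0.98 for CHAC1 and SESN2, 0.97 for DDIT3 and TRIB3 and 0.94 for ATF4 with TRIB3 or CHAC1, a description over 9 points that share lines and controls. ATF3 and ATF5 ran in opposite directions (r = -0.88), a value that the H929 groups take part in at one end. Outside the members, the genes most like ATF4 were MARS (r = 0.982), CARS (0.976) and SHMT2 (0.97), MARS and CARS being tRNA synthetase genes and SHMT2 the mitochondrial serine hydroxymethyltransferase. Those most like TRIB3 were MARS (0.959), SHMT2 (0.951) and SMARCAL1 (0.92), and those most like DDIT3 were ABHD14B (0.947), SHMT2 (0.945) and RCC2 (0.937).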

How the data were processed

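Libraries came from live-sorted cells, RNeasy Plus RNA and a TruSeq RNA kit, per the labels' protocols. The authors deposited raw counts per Entrez gene (28395 genes, 385 without a symbol, which were kept under their Entrez number) and log2 FPKM values (16352 genes, 14 columns, control groups merged). Subread, featureCounts, limma and GRCh38 are named per the submitters' processing notes; versions and settings are not given in the sources used here.

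The numbers on knockout columns do not match those in the titles, so each such library was placed in its group and named a or b in column order. The letters A and B of the lenalidomide titles are given as replicates 1 and 2. Counts were tested in edgeR 4.0.16 (R 4.3.3, limma 3.58.1): filterByExpr by group (14571 genes), TMM scaling, 1 coefficient per group over 18 libraries, robust quasi-likelihood fit with 9 residual degrees of freedom, Benjamini-Hochberg adjustment over all genes and calls at 0.05. CPM are counts scaled to the effective library size, and SE comes from the fold change and its F statistic. An exact permutation test of 2 libraries against 2 has a smallest p of 0.333 and was not used. Depth was 11.8 to 24.19 M counts per library, and a limit of detection of 3 counts covers counting error only.

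Members, lists and tests were chosen with earlier results of these data known. The text names the 10 members, up to 4 called genes of a list with the smallest p in a comparison, IKZF1 and IKZF3, and the 3 genes most like each of ATF4, TRIB3 and DDIT3 among those whose mean log2 CPM was 1 or more; those shown were picked from this set after their values were seen. Alternatives were other scalings, low-count filters, the DESeq2 1.42.0 Wald test, limma-voom, the compared libraries alone, the untreated control, a replicate block and leaving out single libraries.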

Additional observations from a re-analysis of the deposited data

Results flagged for a closer look

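Differences between the effects of a perturbation that passed the test of the difference itself are listed here as values on the log2 scale, each from the edgeR interaction contrast, and no explanation was weighed.

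The effect of IKZF1 loss was higher in H929 than in MM1S by 1.52 for ATF3, 1.1 for ATF4, 1.48 for TRIB3, 1.84 for CHAC1, 1.14 for SESN2 and 2.42 for CEBPB (adjusted p between 9.01e-06 and 0.0042). It was higher in H929 than in OPM2 by 1.01 for ATF3, 1.25 for DDIT3, 1.01 for DDIT4, 1.03 for TRIB3, 0.59 for SESN2 and 1.2 for CEBPB (adjusted p between 0.0033 and 0.0485). Between MM1S and OPM2 the effect differed by 1.53 for DDIT4, -1.08 for CHAC1, -0.55 for SESN2 and -1.22 for CEBPB (adjusted p between 0.00309 and 0.0479). When only the compared libraries were fitted, 7 members passed for H929 against MM1S, 0 for H929 against OPM2 and 2 for MM1S against OPM2.

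In OPM2 the effect of lenalidomide was lower than that of IKZF1 loss, with differences of -2.35 for CHAC1, -2.13 for SESN2, -1.31 for CEBPB and -2.68 for INHBE (adjusted p between 5.03e-05 and 0.0165). The lenalidomide effect is against untreated cells and the IKZF1 effect against empty vector cells, whose SESN2 level was itself lower (-0.77). With untreated cells as the control of both, the effects with lenalidomide were -3.47 for CHAC1, -3.04 for SESN2, -2.20 for CEBPB and -3.62 for INHBE, and those of IKZF1 loss -1.70, -1.68, -0.89 and -1.46. This comparison was chosen after the data were seen.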

How the results depend on the processing

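Of the 38 member changes called in the 6 comparisons within a line, 20 kept direction and call under every alternative run, 18 lost the call under at least 1, and 1 of these also reversed (ATF5 in OPM2 without IKZF1). Of the 22 not called, 14 were called under at least 1 alternative and 8 reversed. Fitting only the compared libraries left 0 members called in OPM2 without IKZF1, 3 without IKZF3 and 0 in empty vector against untreated cells. The same setting left 0 for the IKZF1 effect in H929 against OPM2 and 2 for MM1S against OPM2. Empty vector against untreated gave 4 members with DESeq2 size factors, upper quartile scaling, a CPM of at least 5 in 2 libraries, the DESeq2 Wald test, limma-voom and the replicate block, and 6 with no low-count filter.

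Leaving out 1 library at a time gave 2 to 6 members in H929, 7 in MM1S, 7 to 9 in OPM2 without IKZF1, 8 to 10 without IKZF3, 8 to 9 with lenalidomide and 2 to 5 in empty vector against untreated cells. IKZF1 against IKZF3 knockout gave 2 to 8. The difference in the IKZF1 effect gave 6 to 7 for H929 against MM1S, 3 to 9 for H929 against OPM2 and 2 to 6 for MM1S against OPM2. Lenalidomide against IKZF1 loss gave 2 to 7, and H929 without IKZF1 gave 4 when knockout library b was left out. The cause was not tested.

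On the log2 scale, ATF5 in H929 was 0.0029 with only the compared libraries and -0.21 to 0.12 without 1 library. DDIT4 in H929 ran from -0.17 to 0.61, INHBE in MM1S from -4.90 to 0.58, ATF3 in OPM2 without IKZF1 from -0.27 to 0.0237 and ATF5 without IKZF3 from -0.42 to 0.35. With the untreated cells as control, ATF5 was 0.19 without IKZF1 and 0.77 without IKZF3. In empty vector against untreated cells ATF4 ran from -0.18 to 0.54, TRIB3 from -0.0619 to 0.55 and CEBPB from -0.24 to 0.18.

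The deviations of same-numbered libraries correlated at 0.123 (empty vector and untreated) and 0.026 (lenalidomide and untreated) over 2 pairs each, so the numbers were not taken to pair them. With the replicate block 8 members were called with lenalidomide and 4 in empty vector against untreated cells. No paired analysis was possible for the knockouts because the numbers on their columns match no number in the titles.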

Other observations

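Beside the members, 1 of 6 hypoxia genes rose and none fell in OPM2 without IKZF1, and 1 rose and 1 fell without IKZF3. Of all genes, 16.2% rose and 20% fell without IKZF1, and 16.2% rose and 20.6% fell without IKZF3. NDRG1, a hypoxia-induced gene, averaged 49.17 CPM without IKZF1 and 38.21 CPM without IKZF3 in OPM2, against 19.07 CPM with empty vector (log2 fold changes 1.37 and 1.01), but empty vector cells were themselves below untreated cells (-1.41). VEGFA, a growth factor gene that ATF4 and hypoxia both induce, fell by 1.07 with lenalidomide. In OPM2 without IKZF1 it was not called (-0.33, edgeR adjusted p = 0.0789). With lenalidomide VEGFA was the 1 gene of the 6 called, where 5.76% of all genes rose and 4.58% fell. HMOX1, heme oxygenase, rose by 1.29 in H929 without IKZF1, with a mean of 74.41 CPM against 30.4 CPM with empty vector. CDKN1A, the cell cycle inhibitor p21, rose by 0.67 in H929 and 1.24 in OPM2 without IKZF1 and by 0.49 with lenalidomide. Empty vector OPM2 cells, at 61.71 CPM, were themselves below untreated cells at 84.98 CPM (-0.47), and cells without IKZF1 averaged 145.7 CPM. Of 5 tested p53 targets, 1 rose and none fell in H929 and in OPM2 without IKZF1. With lenalidomide 1 rose and 1 fell, BTG2 at -1.23. Of all genes, 5.92% rose and 4.6% fell in H929, and the other shares are given above.

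TSC22D3, a gene induced by glucocorticoids, fell by 0.72 in MM1S, 0.73 in OPM2 without IKZF1 (adjusted p = 0.06 without OPM2 empty vector replicate 1), 1.23 without IKZF3 and 1.47 with lenalidomide. PER1, FKBP5 and KLF9, other glucocorticoid-induced genes, were not called with lenalidomide (0.29, 0.17 and -0.09) or in OPM2 without IKZF1 (0.21, 0.26 and 0.72). In MM1S, 1 of the 4 tested genes of that list rose and 2 fell. JUNB, an immediate early gene, fell by 0.49, 0.85, 0.51 and 0.80 in the 4 comparisons given for TSC22D3 and rose by 0.56 in H929. Without OPM2 empty vector replicate 1 it did not pass without IKZF3, at -0.23. With all libraries, each of these TSC22D3 and JUNB changes had an adjusted p below the threshold (edgeR). FOS, another immediate early gene, rose by 1.15 with lenalidomide.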
